A study of Mus musculus with 20 samples.

Results

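Gene expression in the nucleus pulposus (NP), the soft core of the intervertebral disc, was compared with that in the annulus fibrosus (AF), the layered fibrous ring around it, in old mice that had been given MDL-800. MDL-800 is a small molecule that activates SIRT6, a nuclear enzyme that uses NAD to remove acyl groups from histones. The 10 libraries were those of the 20 in the series whose column names carry the MDL-800 mark, namely 5 of NP (libraries 15, 18, 19, 20 and 22) and 5 of AF (libraries 25, 27, 28, 29 and 30). The other 10 libraries, 5 of NP (1, 2, 3, 5 and 6) and 5 of AF (8, 9, 10, 12 and 13), came from mice given the vehicle and were used to ask which compartment differences were also present without the compound. All mice were of the BL6 strain and were 24 months old at collection. Mice were allotted at random at 18 months and injected intraperitoneally each week for 6 months, with MDL-800 in DMSO or with as much DMSO alone, so both arms carried DMSO and no library came from an uninjected or a young animal. The labels give neither dose, sex nor the number of injections a week, and they do not say whether each library is a separate animal or a pool, so that every p-value below measures the spread between these libraries. Some NP and AF columns share a number whose meaning the labels do not give, so the same mice may have given both tissues. The main tests did not pair these libraries. One label speaks of isolated cells and another of tissue dissected under a microscope.

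NP cells of the mouse descend from the notochord, the embryonic rod that organizes the spine, whereas AF cells descend from the sclerotome, as vertebral bone, cartilage and tendon-like tissue do. The NP holds a hydrated gel of aggrecan in a space without vessels, and its cells are known to live on glycolysis with constant activity of the hypoxia-inducible factor HIF-1. The AF resists tension through collagen I fibres bound by small leucine-rich proteoglycans, and its outer rim borders bone, ligament, muscle, nerve and marrow.

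Values are FPKM, read counts set against transcript length and library total by the authors, here rescaled so that the median gene matched between libraries (scaled FPKM). Differences are NP minus AF on the log2(scaled FPKM + 1) scale with their standard error (SE), which understates the change of genes near 0. A gene was called at a Benjamini-Hochberg adjusted p below 0.05 in limma, over the 16383 genes that reached 1 FPKM in at least 5 of the 20 libraries. Means are given with their SD over 5 libraries a group, and library values always follow the order of the library numbers above. The NP marker T and the AF marker Col1a1 each separated the labelled compartments in all 10 libraries. T was between 1780.1 and 2328 scaled FPKM in NP and between 129.5 and 446 in AF. Col1a1 was between 21.8 and 108 in NP and between 538 and 1514 in AF. Some other markers of each compartment overlapped or went the other way, as given below.

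Estimated depth ran from 12.8 to 21.4 M reads in the 10 treated libraries, by the size of the value steps that single reads leave in FPKM. It limits the precision of each value, as do 5 libraries a group. Replicates correlated across genes at r = 0.963 to 0.978 in NP and at 0.896 to 0.954 in AF, and the median gene's SD was 0.175 in NP and 0.265 in AF on the log2 scale. Entries of small RNAs took 17.1 to 23.5% of the summed FPKM in NP and 8.5 to 13.9% in AF, and NP libraries held 13301 to 13968 genes at 1 FPKM or more against 15095 to 15671 in AF. The part of either measure in the compartment differences was not tested. Xist was at most 0.228 scaled FPKM in all 20 libraries. The Y-linked Ddx3y was at 22.1 to 40.2 and Eif2s3y at 26.5 to 52.3, the pattern of male tissue in every library.

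In treated mice the compartments differed across most of the transcriptome, and the large differences lay mainly on the AF side. Of the 16383 genes tested, 10290 were called (62.8%), 4188 higher in NP (25.6%) and 6102 lower (37.2%), and the 5 NP values did not overlap the 5 AF values for 8041 genes (49.1%). Among the called genes, 1152 were higher in NP by at least 1 on the log2 scale and 3350 were lower by at least 1, while 189 were higher and 1571 lower by at least 2. The median difference over all genes tested was -0.08. After quantile normalization the median moved to 0.20 and the calls were 61.7% higher against 38.3% lower, in place of 40.7% against 59.3%, so the balance of small differences depended on the scaling. For 3662 genes (22.4%) the 95% interval of the difference lay within 0.5 of 0 on the log2 scale. Without AF libraries 27 and 30, a pair chosen after seeing the data, 9731 genes were called. Without NP libraries 18 and 22, which had the most red cell and neutrophil RNA of the NP libraries, 9039 were.

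Most of these differences were also present in vehicle mice, whose libraries are separate from the treated ones. There 9127 genes were called (55.7%), 3577 higher in NP (21.8%) and 5550 lower (33.9%), and 8282 genes (50.6%) were called in the same direction in both arms, 3100 higher (18.9%) and 5182 lower (31.6%). The shared genes made up 80.5% of the treated calls and 90.7% of the vehicle calls, and 0 genes were called in opposite directions. Of the 4502 treated calls of at least 1 on the log2 scale, 4331 (96.2%) were called in vehicle too, and of the 1760 of at least 2, 1723 (97.9%). When the compartment difference itself was compared between arms, 0 genes (0%) passed in limma. The lowest adjusted p was 0.9997, and 611 genes (3.73%) lay below 0.05 before adjustment. Among the 2008 genes called in treated mice alone, 1856 had the same sign in vehicle, and 171 differed by at least 1 in treated mice.

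**Figure D1:**
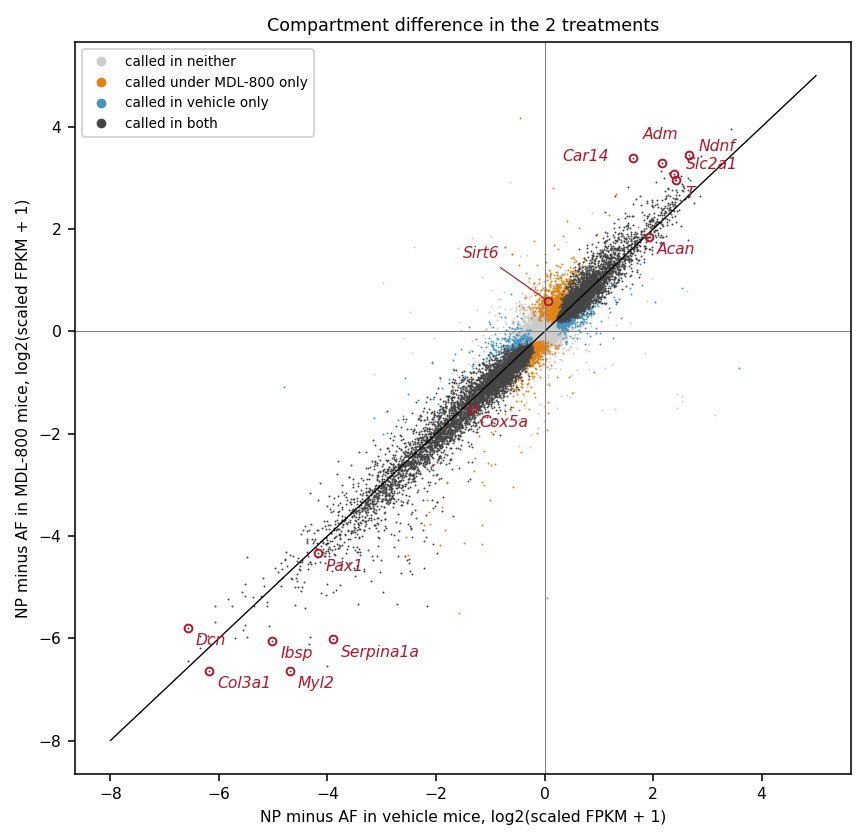
Each point is 1 of the 16383 tested genes, with its NP minus AF difference in vehicle mice on the x axis and in MDL-800 mice on the y axis, both on the log2(scaled FPKM + 1) scale, and the line marks equal differences. Genes called in both arms are dark grey, those called under MDL-800 only orange, those called in vehicle only blue and those called in neither light grey, and most points lie along the line in both directions.

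Notochordal marker genes were mostly higher in the NP of treated mice. Of the 13 tested, 10 were higher, 1 was lower and 2 were not called, against 25.6% higher and 37.2% lower among all genes. The median difference was 2.09 (all genes, -0.08) and 1.88 in vehicle. Noto, a further marker on the list, did not reach 1 FPKM in 5 libraries and was not tested. T, which encodes the notochordal transcription factor brachyury, was at 1849.6, 1780.1, 1994, 2328 and 2011 in the NP libraries and at 446, 129.5, 163, 321 and 357 in the AF libraries (2.95 ± 0.31, adjusted p = 1.84e-05). Krt19, an epithelial-type keratin that marks notochordal NP cells, was at 1710.4, 1689, 2011, 2355 and 2046 in NP and 545, 66.9, 143, 283 and 394 in AF (3.1 ± 0.48, adjusted p = 0.000227). No AF library reached an NP library for either gene, but both were well above 0 in AF, highest in library 25 and lowest in library 27.

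The partner keratins Krt8 (1081 ± 118 against 187 ± 119) and Krt18 (176 ± 33.1 against 46.1 ± 34.1) were higher in NP by 2.76 and 2.14. Krt8 shares 32.3% of its 31-base words with transcripts of other genes, so its value is less certain. Car3, a carbonic anhydrase and the most abundant of the NP markers, was at 20192, 22059.7, 24026, 22714 and 23024 in NP and 4529, 2587, 2088, 4623 and 4646 in AF (2.68 ± 0.29, adjusted p = 2.08e-05). The adhesion molecule Cdh2, N-cadherin (192 ± 9.26 against 48.3 ± 24.1, 2.09 ± 0.27, adjusted p = 5.96e-05), and the galactose-binding lectin Lgals3 (5478 ± 560.4 against 1253 ± 538, 2.23 ± 0.28, adjusted p = 5.18e-05) followed the same pattern, as did the surface protein gene Cd24a (3329.9 ± 292 against 1195 ± 352, 1.53 ± 0.21, adjusted p = 0.000111). Foxa1, a pioneer transcription factor of the notochord, was low in both compartments (2.13 ± 0.61 against 0.619 ± 0.227) and higher in NP by 0.94. Its relative Foxa2 was at 4.1, 3.62, 3.62, 3.02 and 3.1 in NP and 3.55, 2.5, 1.96, 2.26 and 1.15 in AF (0.49 ± 0.18, adjusted p = 0.0351). This call ended without NP library 15, 18 or 19 or AF library 28, 29 or 30 (adjusted p up to 0.0795). It also ended without AF libraries 27 and 30, without NP libraries 18 and 22, with FPKM as deposited and with no filter on low values (adjusted p 0.0621 to 0.101). Shh, the notochord's secreted signal, was at 3.37, 0.368, 5.17, 1.46 and 3.03 in NP and 2.91, 1.09, 0.0889, 2.79 and 1.23 in AF, groups that overlapped widely (0.46 ± 0.45, adjusted p = 0.395). It was called in vehicle (1.19, adjusted p = 0.0323). Basp1, a membrane-bound growth cone protein, was not called either (8.74 ± 2.51 against 7.45 ± 1.81, 0.19 ± 0.21, adjusted p = 0.445), except under quantile normalization (0.54). Car12, a membrane carbonic anhydrase used as an NP marker in other species, went the other way in these mice, at 0 to 0.0309 in NP and 1.54 to 7.44 in AF (-2.01 ± 0.27, adjusted p = 9.47e-05).

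**Figure D2:**
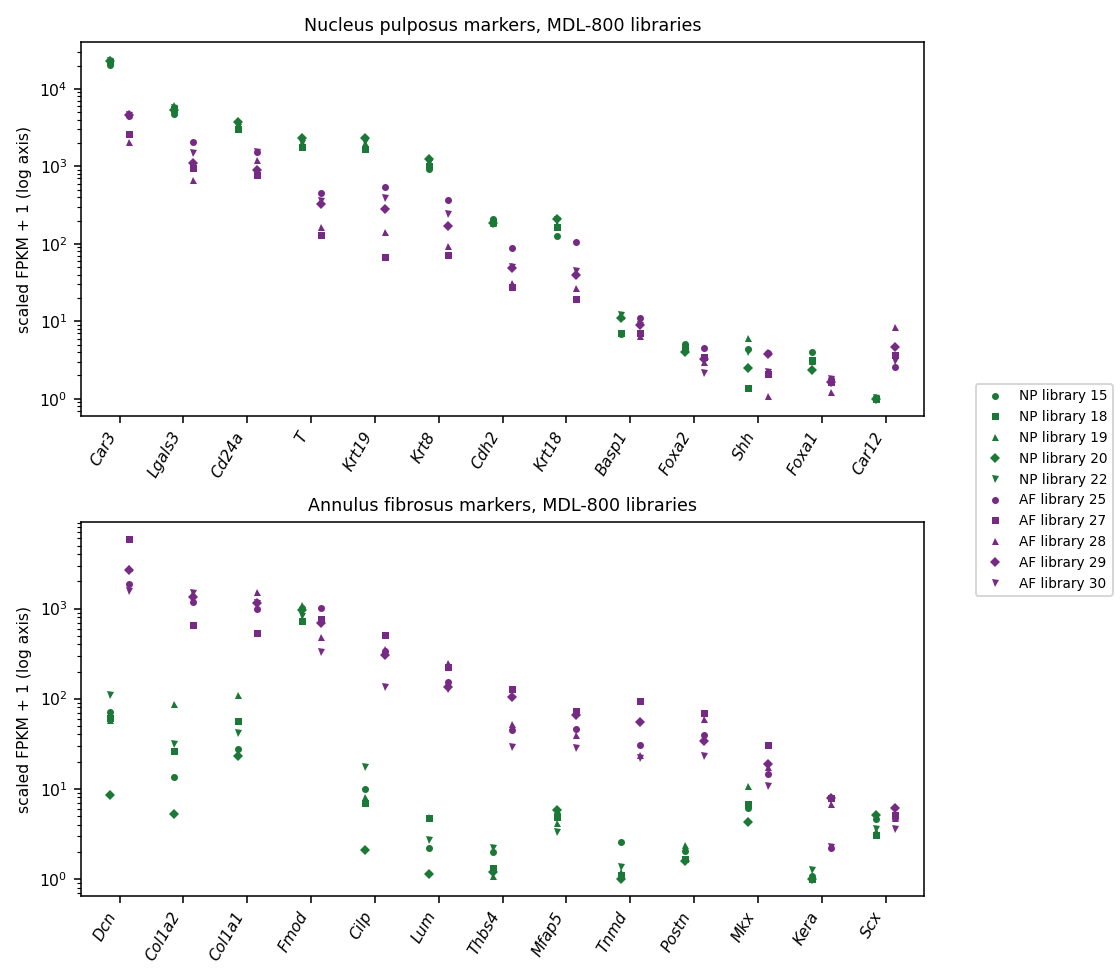
Scaled FPKM plus 1 on a log axis for marker genes of the 2 compartments, 1 point per treated library, with NP and AF libraries in separate colours. NP markers sit higher in the NP libraries and AF markers higher in the AF libraries, while Foxa2, Shh, Basp1, Mkx, Scx and Fmod overlap and Car12 sits higher in AF.

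The AF markers were on the other side, with 11 of 13 lower in NP, 0 higher and 2 not called. Among all genes 37.2% were lower and 25.6% higher. The median of the AF markers was -4.54, and -4.15 in vehicle. Col1a1, one chain of collagen I, was at 26.5, 55.2, 108, 21.8 and 40.8 in NP and 989, 538, 1514, 1149 and 1166 in AF (-4.54 ± 0.41, adjusted p = 6.86e-06). Col1a2, the other chain, was at 12.3, 25.1, 86.8, 4.19 and 30.7 in NP and 1184, 650.4, 1483, 1336 and 1488 in AF (-5.75 ± 0.62, adjusted p = 2.06e-05). Both chains were highest among NP libraries in library 19, which also stood out for bone RNA. Decorin (Dcn), a proteoglycan that sets collagen fibril spacing, was at 70.9, 60.5, 57.3, 7.53 and 109 in NP and 1879, 5852, 2840.4, 2646 and 1553 in AF (-5.8 ± 0.63, adjusted p = 2.08e-05). Lumican (Lum), a related one, was at 1.22, 3.77, 3.81, 0.116 and 1.67 in NP and 152, 226, 249.5, 132 and 128 in AF (-5.97 ± 0.39, adjusted p = 1.32e-06).

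Tenomodulin (Tnmd), a membrane protein of tendon and ligament cells, averaged 0.444 ± 0.644 against 44.3 ± 31 (-4.82 ± 0.41, adjusted p = 4.89e-06), with NP library 15 at 1.57 and the other NP libraries at 0.350 or less. The matrix proteins Thbs4 (-5.38), Cilp (-5.37), Postn (-4.5), Mfap5 (-3.38) and Kera (-2.12) were all lower in NP (largest adjusted p = 0.000657, for Kera). Mkx, a tendon transcription factor, was lower by a smaller amount and with overlapping libraries (5.83 ± 2.35 against 17.4 ± 7.65, -1.41 ± 0.29, adjusted p = 0.00166). Scx, the other tendon transcription factor in the list, was at 3.66, 2.05, 2.35, 4.13 and 2.62 in NP and 3.78, 4.05, 3.78, 5.04 and 2.55 in AF and was not called (-0.30 ± 0.18, adjusted p = 0.176). Fmod, fibromodulin, was abundant in both, at 1014, 718, 1104, 956 and 829 in NP and 1009.8, 763, 483, 684 and 326 in AF (0.59 ± 0.27, adjusted p = 0.0847). Without AF library 25 it was called higher in NP (0.77, adjusted p = 0.0217).

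Some RNA of each compartment's markers was present in the other. Relative to the NP mean, the median of the 10 NP markers called higher in NP stood at 37.7% in AF library 25, 12.7% in 27, 11.6% in 28, 21.2% in 29 and 25.0% in 30. Relative to the AF mean, the median of the 11 AF markers called lower in NP stood at 2.40% in NP library 15, 2.04% in 18, 2.20% in 19, 0.328% in 20 and 3.70% in 22. The markers not called in that direction (Shh, Basp1, Car12, Scx and Fmod) do not enter these medians. AF library 25 and NP library 20 thus lay at opposite ends, with the most NP-type RNA in an AF library and the least AF-type RNA in an NP library. In bulk tissue, fewer cells of a type and less RNA per cell cannot be told apart, here and in all that follows.

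Markers of the tissues around the disc moved with the compartments, and almost all of them were on the AF side. Every tested marker of skeletal muscle (14), bone (8), osteoclasts (4), red cells (9) and neutrophils (10) was lower in NP. So was every tested marker of macrophages (9), B and plasma cells (8), endothelium (9) and nerve (7), and 7 of 8 of fat. Among all genes 37.2% were lower. The summed level of muscle markers was 15.4 to 338 scaled FPKM in NP and 1214 to 13137 in AF, and that of neutrophil markers 212 to 1829 against 6497 to 35284. For red cells the sums were 30.1 to 219.8 against 625 to 3335, for B and plasma cells 61.4 to 313 against 2515 to 9621, and for macrophages 69.9 to 236 against 1129.8 to 2486.

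For bone the sums were 1.35 to 168 against 620.4 to 1982, for osteoclasts 47.3 to 62.7 against 229 to 797, for fat 27.7 to 54.3 against 211 to 1071, for nerve 20.5 to 36.6 against 101 to 349, and for endothelium 17.5 to 30.6 against 96.2 to 156. The AF libraries thus carried more RNA of every one of these cell types, with no overlap between the compartments in any of the sums. No gene of these lists was at 0 in all 5 libraries of a group. The part of these cells in the differences that follow, including those in collagen, matrix-degrading enzymes and cytokines, was not tested. Single genes show the size, with the NP mean first: the muscle light chain Myl1 was at 16.8 ± 14.4 against 594 ± 605, the granulocyte protein S100a9 at 217 ± 172 against 4085 ± 2949 and the haem-making Alas2 of red cells at 17.3 ± 14.9 against 303 ± 177. The antibody light chain Igkc was at 158 ± 84.3 against 3749 ± 2009 and the macrophage complement gene C1qa at 2.43 ± 1.41 against 79.1 ± 20.2. The osteoclast phosphatase Acp5 was at 5.71 ± 3.02 against 226 ± 142 and osteocalcin (Bglap), of bone, at 19.9 ± 35.1 against 731 ± 318. Complement factor D of fat (Cfd) was at 5.18 ± 4.86 against 225 ± 207. Bglap shares 62.9% of its words with its copy Bglap2.

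The contractile genes of mural cells were the exception. Smooth muscle actin Acta2 was at 325, 528, 656, 657 and 713 in NP and 280.4, 145, 97.9, 196 and 169 in AF (1.72 ± 0.29, adjusted p = 0.000382). Its companion Tagln was higher too (1.6, adjusted p = 0.00139). Myh11, smooth muscle myosin, was called higher (0.75, adjusted p = 0.0306), a call that ended without NP library 15 or 20 or AF library 27, 28 or 30, without AF libraries 27 and 30 together or with no filter on low values (adjusted p 0.0511 to 0.122). The pericyte genes Rgs5 (-4.5) and Des (-4.57) were lower in NP, and Cnn1 was not called (-0.73, adjusted p = 0.0912), except without AF library 30 (-0.92) and with array weights (-0.90).

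**Figure D3:**
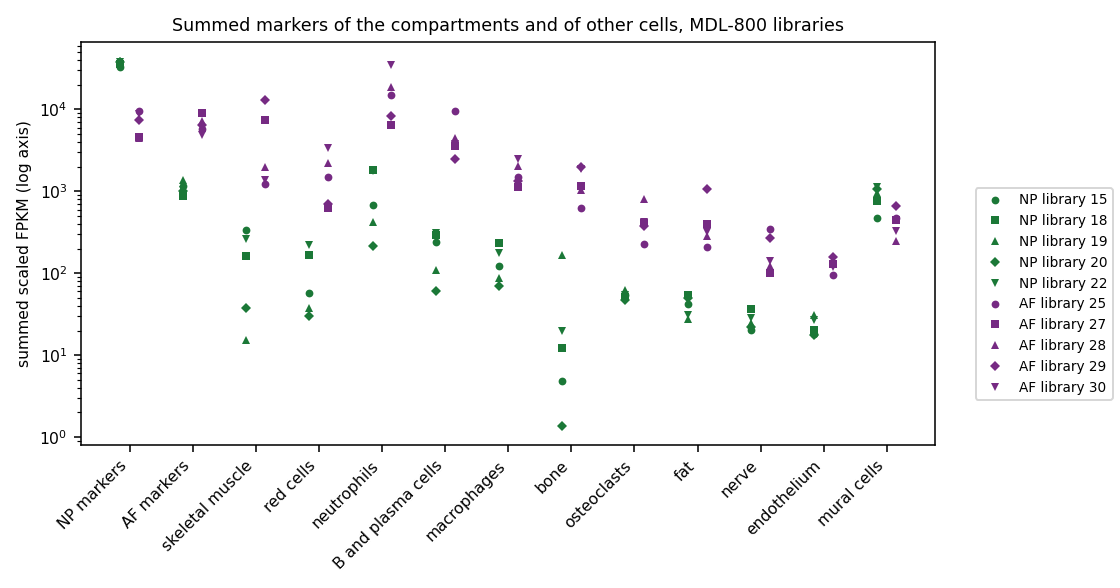
Summed scaled FPKM of the NP and AF marker lists (first columns) and of the marker lists of other cell types on a log axis, 1 point per treated library. AF libraries lie above NP libraries for every list of other cells except mural cells, whose sums overlap (478 to 1121 in NP, 245 to 659.5 in AF).

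The 10 largest excesses in NP were taken among called protein-coding genes at a mean of at least 10 scaled FPKM there, with no overlap between the compartments and in no list of other cells. They were Ndnf, Gng13, Car14, Adm, Gm572, Krt19, Slc2a1, Map2, Disp1 and Tmeff1. Ndnf, a secreted neurotrophic factor, was at 269, 289, 264, 223 and 178 in NP and 17.6, 21.1, 27.9, 25 and 16.4 in AF (3.45 ± 0.17, adjusted p = 7.11e-07). Disp1, a transporter that releases Hedgehog ligands from the cells making them, was at 360.0, 431, 369, 388 and 337 in NP and 74, 21.2, 34.8, 61.9 and 60.4 in AF (3.0 ± 0.29, adjusted p = 1.05e-05). Map2, best known as a microtubule protein of dendrites, averaged 127 ± 9.97 against 16.1 ± 8.33 (3.03 ± 0.29, adjusted p = 8.99e-06).

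The G protein subunit Gng13 (3.43), Gm572 (3.14) and the transmembrane protein Tmeff1 (2.99) were similar in size (largest adjusted p = 6.65e-05, for Gng13). Car14, another carbonic anhydrase, varied most among them, at 172, 69.5, 16, 61.2 and 14.4 in NP, where library 15 was highest and library 22 lowest, against 1.44, 4.57, 3.71, 7.45 and 1.8 in AF (3.4 ± 0.64, adjusted p = 0.000889). All of the 10 were also higher in NP in vehicle mice, Car14 by 1.62 (adjusted p = 0.0125) and Ndnf by 2.66 (adjusted p = 0.00161).

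The 10 largest deficits in NP by the same rule were each larger on the log2 scale than the largest excess, and lay in Myl2, Col3a1, Apod, Myoc, Ibsp, Serpina1a, Aspn, Cnmd, Lum and Clec3a. Col3a1, the collagen of pliable connective tissue and vessel walls, was at 3.0, 4.6, 0.676, 0.413 and 3.37 in NP and 316, 433, 587, 199 and 137 in AF (-6.63 ± 0.48, adjusted p = 2.01e-06). Apod, a lipid-binding apolipoprotein of fibroblasts and nerve, was at 14.7, 10.5, 3.93, 2.04 and 8.02 in NP and 631, 1028, 419, 965 and 473 in AF (-6.45 ± 0.44, adjusted p = 1.67e-06). Clec3a, a cartilage lectin, was at 12.1, 10.7, 27, 0.995 and 28 in NP and 705, 1763, 821, 584 and 379 in AF (-5.95 ± 0.69, adjusted p = 3.18e-05).

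Myl2, a light chain of slow and cardiac muscle, varied widely among AF libraries, at 2.83, 0.926, 0.343, 0 and 0.69 in NP and 44.1, 674, 34.7, 799.7 and 187 in AF (-6.64 ± 0.86, adjusted p = 7.12e-05). Libraries 27 and 29, the highest AF libraries for Myl2, were also the highest for Myl1. Myoc, a secreted glycoprotein, was at 42.9 in NP library 15 and at 5.97 or less in the other NP libraries, against 276 to 1506 in AF (-6.19 ± 0.67, adjusted p = 2.08e-05). Serpina1a, a copy of the protease inhibitor gene family whose members share sequence (65.2% of its words), was lower in NP (-6.02, adjusted p = 1.84e-06). All 10 of these genes were lower in NP in vehicle mice too, with differences of -3.89 for Serpina1a and -4.7 for Myl2.

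Cartilage genes divided between the compartments, 3 of 19 higher in NP, 13 lower and 3 not called, against 25.6% higher and 37.2% lower among all genes. Their median was -1.52 (-0.92 in vehicle). Aggrecan (Acan), the main proteoglycan of the disc gel, was at 2096, 2717, 1889, 3118 and 2052 in NP and 1395, 547, 778, 586 and 321 in AF (1.85 ± 0.34, adjusted p = 0.00068). Sox9, the transcription factor that drives it, was at 153, 212, 165, 174 and 139 in NP and 64.2, 55.1, 72.1, 57.4 and 31.2 in AF (1.61 ± 0.21, adjusted p = 6.42e-05). Its partner Sox6 averaged 71.1 ± 7.41 against 46.2 ± 9.01 (0.63 ± 0.14, adjusted p = 0.00232). These 3 were the members higher in NP, and none overlapped.

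Chad, a cartilage collagen-binding protein, was lower in NP (27.5 ± 16.4 against 1521 ± 602, -5.95 ± 0.54, adjusted p = 6.47e-06), and so were Comp (15.3 ± 9.06 against 719 ± 211, -5.67 ± 0.48, adjusted p = 4.63e-06), a collagen-organizing thrombospondin, and Cnmd, chondromodulin, an inhibitor of vessel growth (1.39 ± 1.0 against 155 ± 79.6, -5.98 ± 0.38, adjusted p = 1.25e-06). The secreted cartilage protein Cytl1 was at 86, 138, 121, 86.2 and 149 in NP and 1799, 2910.2, 2444, 1549.8 and 1363 in AF (-4.09 ± 0.24, adjusted p = 1.08e-06). The joint lubricant Prg4 averaged 44.2 ± 27.9 against 892 ± 497 (-4.41 ± 0.54, adjusted p = 4.43e-05). Col2a1, the fibril collagen of cartilage, was at 209, 244, 175, 289 and 149 in NP and 418, 362, 334, 334 and 143 in AF and was not called (-0.53 ± 0.28, adjusted p = 0.128). It was called lower without AF library 30 (-0.79, adjusted p = 0.00426) and without both AF libraries 27 and 30 (-0.79). Aggrecan thus differed beyond the spread between libraries, and collagen II did not pass the test.

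In a chosen list of other collagens 0 of 18 were higher in NP, 11 were lower and 7 were not called (median -1.41, -1.65 in vehicle). Of all genes, 25.6% were higher and 37.2% lower. Beside Col3a1, the fibril-regulating Col5a2 (1.53 ± 0.96 against 61.3 ± 18.1, -4.66) and the fibril-associated Col12a1 (1.53 ± 0.281 against 49 ± 14.1, -4.26) and Col14a1 (0.409 ± 0.295 against 23.6 ± 7.04, -4.1) were lower, with adjusted p of at most 1.14e-06. Col6a2, a chain of the pericellular collagen VI, was at 237, 276, 255, 331 and 241 in NP and 344, 244, 249, 189 and 103 in AF and was not called (0.34 ± 0.27, adjusted p = 0.291).

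Among small leucine-rich proteoglycans and elastic fibre genes 13 of 17 were lower in NP and 1 was higher, against 37.2% and 25.6% of all genes. Their median was -3.41 (-3.02 in vehicle). Asporin (Aspn) was at 6.04, 1.99, 0.595, 0.286 and 2.0 in NP and 121, 364, 176, 185 and 92.2 in AF (-6.0 ± 0.47, adjusted p = 3.05e-06). Osteomodulin (Omd, -4.89), biglycan (Bgn, -3.61), the collagen cross-linking enzyme Lox (-4.14), fibrillin 1 (Fbn1, -3.81), fibulin 1 (Fbln1, -4.09) and elastin (Eln, -2.6) were lower too, with adjusted p of at most 1.43e-05. The one member higher in NP was Loxl2, a related cross-linking enzyme, at 90.5, 138, 99.8, 97.8 and 63.2 against 50.5, 49.4, 26.7, 31.7 and 13.6 (1.58 ± 0.33, adjusted p = 0.00177). Of its words, 46.2% occur in other transcripts. Prelp was not called (211 ± 13.4 against 290.1 ± 103, -0.37 ± 0.26, adjusted p = 0.236), except without AF library 30 (-0.63) or AF libraries 27 and 30 (-0.56).

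Of 19 matrix-degrading enzymes and inhibitors, 14 were lower in NP and 3 higher, against 37.2% and 25.6% of all genes. The median was -1.53 (-1.59 in vehicle, -1.0 under quantile normalization). The gelatinase Mmp2 was at 2.03, 1.98, 1.28, 0.0741 and 1.49 in NP and 95.9, 226, 183, 114 and 72.4 in AF (-5.84 ± 0.36, adjusted p = 1.14e-06). Mmp13, an interstitial collagenase, was at 0.876, 3.51, 2.8, 0.328 and 0.834 in NP and 92.2, 102, 211, 63.2 and 67.1 in AF (-5.35 ± 0.40, adjusted p = 2.36e-06). Mmp9 (-4.04) and stromelysin Mmp3 (-3.51) were also lower. Mmp9 is also a product of neutrophils and osteoclasts, whose marker sums were higher in AF.

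The 3 members higher in NP were Htra1, Adamts1 and Timp3. Htra1, a secreted serine protease, was at 1902, 1718, 1628, 1706 and 1659 in NP and 1068, 583, 417, 487 and 459 in AF (1.6 ± 0.23, adjusted p = 0.000141). The proteoglycan-cleaving Adamts1 averaged 24 ± 8.61 against 8.4 ± 2.28 (1.38 ± 0.24, adjusted p = 0.000587). Timp3, an inhibitor of the aggrecan-cleaving proteases, was at 467, 682, 565, 599 and 654 in NP and 317, 633, 415, 353 and 276 in AF (0.62 ± 0.21, adjusted p = 0.0239). It lost its call without NP library 18 or 22 or AF library 25 or 30 (adjusted p 0.0533 to 0.0547), with no filter on low values and without NP libraries 18 and 22 (adjusted p = 0.132). Timp2 was not called (301 ± 25.1 against 298 ± 92.9, 0.07 ± 0.19, adjusted p = 0.770).

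Of 13 genes of mineral and phosphate handling, 9 were lower in NP and 1 was higher, against 37.2% and 25.6% of all genes (median -2.67, -2.0 in vehicle). Bone sialoprotein (Ibsp) was at 1.98, 4.38, 2.82, 0.349 and 2.19 in NP and 248, 161, 415, 126 and 154 in AF (-6.04 ± 0.39, adjusted p = 1.37e-06). The phosphatase Alpl was at 1.16, 0.81, 1.62, 0.243 and 1.29 in NP and 70.1, 47.2, 117, 68.5 and 47.7 in AF (-5.09 ± 0.27, adjusted p = 7.11e-07). Col10a1, the collagen of hypertrophic cartilage, was lower too (-4.56). The pyrophosphate-making Enpp1 (-3.78) and the exporter Ank (-3.27), which oppose mineral, were lower in NP as well, as was the mineral inhibitor Mgp (-2.12). The phosphate exporter Xpr1 was the member higher in NP (0.38, adjusted p = 0.0101), and osteopontin (Spp1) was abundant in both and not called (4963 ± 968 against 4159 ± 1201, 0.27 ± 0.24, adjusted p = 0.340).

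**Figure D4:**
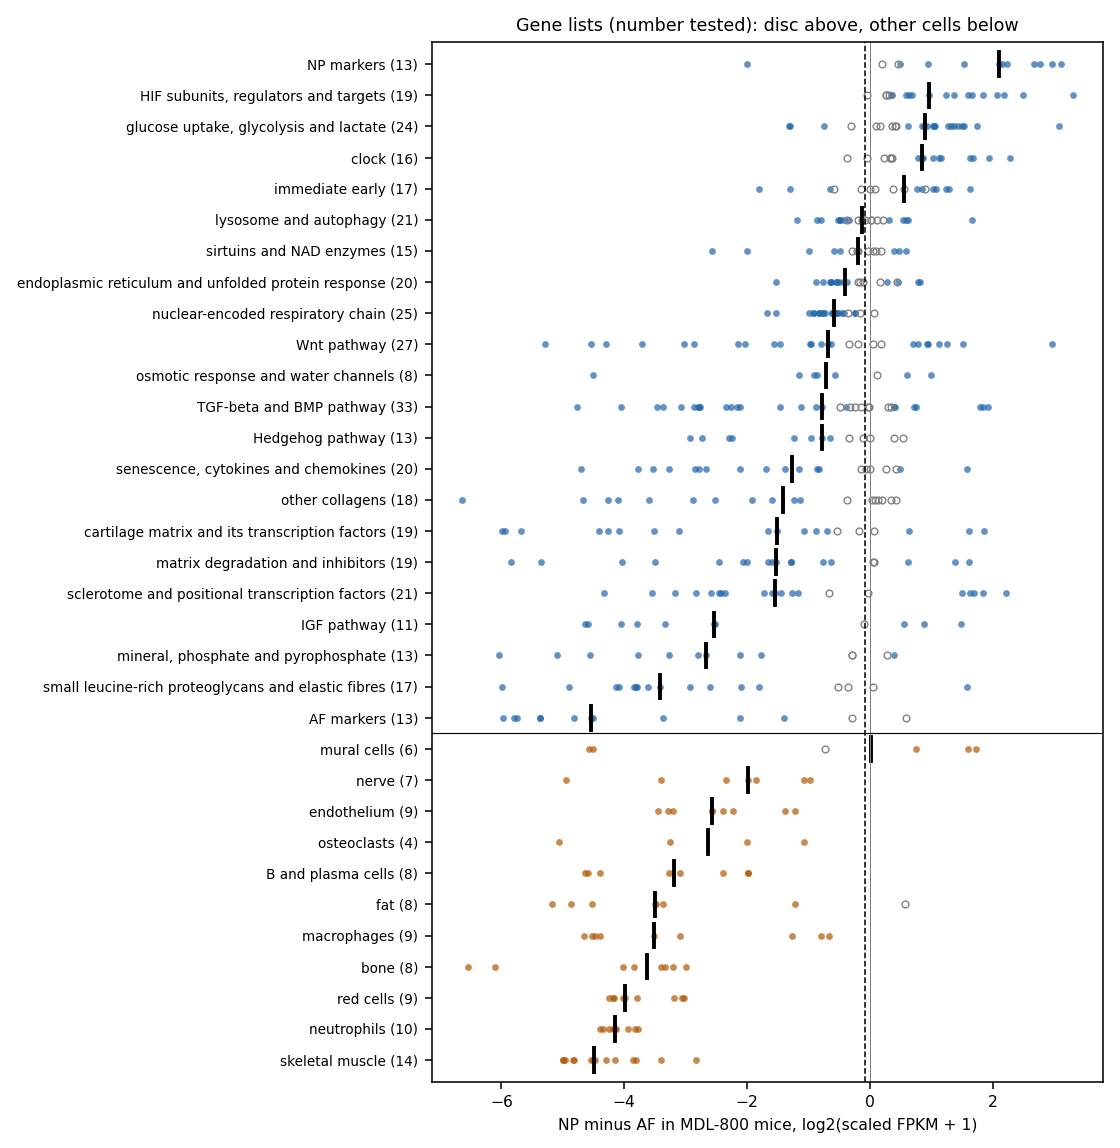
Each point is a tested gene at its NP minus AF difference in treated mice on the log2(scaled FPKM + 1) scale, filled where called and open where not, with disc lists above, lists of other cells below and the number tested in parentheses. Vertical bars mark list medians and the dashed line the median of all genes (-0.08); NP marker, HIF, glycolysis and clock medians lie to its right, and those of nearly all other-cell lists far to its left.

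Energy metabolism differed in both directions at once. Of 24 genes of glucose uptake, glycolysis and lactate, 15 were higher in NP and 3 lower (median 0.90, 0.82 in vehicle). Of 19 HIF genes 15 were higher and 0 lower (0.96 and 0.81), and of 25 nuclear-encoded respiratory chain genes 22 were lower and 0 higher (-0.59 and -0.54). Among all genes 25.6% were higher and 37.2% lower. Slc2a1, the glucose transporter GLUT1, was at 706, 1061, 745, 870.0 and 702 in NP and 212, 54, 86.4, 109 and 72.2 in AF (3.07 ± 0.31, adjusted p = 1.30e-05). Adm, the vasodilator peptide adrenomedullin and a HIF target, was at 61.9, 145, 70.1, 90.1 and 83.7 in NP and 8.48, 5.37, 9.71, 9.95 and 6.72 in AF (3.3 ± 0.23, adjusted p = 1.82e-06). NP library 18 was the highest for both, and no AF library reached the lowest NP library.

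Further HIF targets were also higher in NP. Carbonic anhydrase Car9 was at 38.8, 42.1, 54, 30.6 and 30.6 in NP and 12.8, 6.32, 3.33, 6.25 and 4.19 in AF (2.5 ± 0.29, adjusted p = 3.10e-05). The vessel growth factor Vegfa was at 194, 329, 196, 266 and 289 in NP and 54.7, 40.0, 54.3, 67.2 and 58.3 in AF (2.18 ± 0.18, adjusted p = 3.66e-06). The mitophagy receptor Bnip3, with 20.3% of its words shared, was at 889, 1002, 874, 886 and 749 in NP and 308, 233, 147, 225 and 171 in AF (2.06 ± 0.19, adjusted p = 6.39e-06). Vegfa was higher in NP while endothelial markers such as Pecam1 (1.55 ± 0.67 against 26.8 ± 6.77) were lower. The oxygen-sensing hydroxylases Egln1 (1.66) and Egln3 (1.84), the stress gene Ndrg1 (1.6) and the HIF subunit Epas1 (0.69) were higher too, with adjusted p of at most 0.00108. The mRNA of the other subunit, Hif1a, was at 74.1, 78.8, 71.9, 72.4 and 73.7 in NP and 73.1, 77.6, 56.7, 50.0 and 47.7 in AF (0.30 ± 0.14, adjusted p = 0.0715). It was called without AF library 25 or 27 (0.38 and 0.40) or both 27 and 30 (0.32), under quantile normalization (0.42), with array weights (0.32) and with GC content removed (0.31). HIF-1 is known to be controlled through the stability of its protein, which RNA does not show.

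The sequence ACGTG is a form of the core that HIF binds. The 250 bases before the start of 3 of these genes are therefore shown with each ACGTG on either strand in capitals (RefSeq, GRCm38.p6, read 5′ to 3′ on the gene's own strand). Other forms of the core were not searched for and are not marked. A match that reads CACGTG is also an E-box, the site of clock and other basic helix-loop-helix factors, so the clock repressor Ciart, taken up further on, is added.
Slc2a1 (chr4:119108495-119108744, plus strand): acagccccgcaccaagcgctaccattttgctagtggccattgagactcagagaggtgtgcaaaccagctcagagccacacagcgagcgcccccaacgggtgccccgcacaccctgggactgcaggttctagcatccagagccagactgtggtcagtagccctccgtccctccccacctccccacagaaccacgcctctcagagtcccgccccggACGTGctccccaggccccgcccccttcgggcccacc
Car9 (chr4:43506776-43507025, plus strand): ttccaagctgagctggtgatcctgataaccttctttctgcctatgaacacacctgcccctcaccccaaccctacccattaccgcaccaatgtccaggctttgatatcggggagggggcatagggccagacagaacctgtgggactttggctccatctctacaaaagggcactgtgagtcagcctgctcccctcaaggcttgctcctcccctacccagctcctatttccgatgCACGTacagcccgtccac
Bnip3 (chr7:138909507-138909756, minus strand): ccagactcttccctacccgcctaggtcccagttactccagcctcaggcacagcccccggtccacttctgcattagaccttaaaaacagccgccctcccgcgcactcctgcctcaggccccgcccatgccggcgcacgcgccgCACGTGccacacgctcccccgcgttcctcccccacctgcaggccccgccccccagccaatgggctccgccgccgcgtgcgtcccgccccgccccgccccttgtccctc
Ciart (chr3:95882229-95882478, minus strand): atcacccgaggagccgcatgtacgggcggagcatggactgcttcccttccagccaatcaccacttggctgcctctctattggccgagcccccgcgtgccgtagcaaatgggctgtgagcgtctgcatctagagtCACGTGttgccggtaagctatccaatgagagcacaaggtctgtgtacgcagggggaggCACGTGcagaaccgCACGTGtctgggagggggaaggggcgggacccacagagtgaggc
Slc2a1 and Car9 hold 1 match each outside an E-box, Bnip3 holds 1 within CACGTG, and Ciart holds 3, each an E-box. ACGTG on either strand, matches inside E-boxes included, was in these 250 bases for 11 of 23 genes of the glucose list, 9 of 15 of the HIF list, 9 of 14 of the clock list and 4 of 16 of the respiratory chain list, against 24.3% of tested genes with a window. It was there for 26.5% of the genes higher in NP, 22.2% of those lower and 25.0% of those not called. With the 50 bases after the start included, the counts were 14 of 23, 10 of 15, 9 of 14 and 4 of 16, against 28.4%. The window of Adm holds no match. A match describes the letters of the window and not binding.

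In glycolysis itself the activator enzyme Pfkfb3 was at 81.4, 114, 74.8, 90.4 and 85.5 in NP and 21.4, 26.8, 26.9, 28 and 25.8 in AF (1.74 ± 0.12, adjusted p = 1.75e-06). Hexokinase 2 (Hk2) was at 38.4, 57.4, 34.3, 57.4 and 37.3 in NP and 17.4, 18, 17.9, 19.4 and 16 in AF (1.26 ± 0.15, adjusted p = 4.37e-05). Enolase (Eno1, 1.5), phosphoglycerate kinase (Pgk1, 1.32) and lactate dehydrogenase A (Ldha, 1.06) were higher with adjusted p of at most 0.000192. Eno1 and Pgk1 share 28.5% and 54.7% of their words with other transcripts, mostly copies. Of the phosphofructokinase genes, the liver form Pfkl was higher in NP (1.52) with overlapping libraries. The muscle form Pfkm was lower (22, 21.2, 23.9, 23.5 and 26.9 against 29.8, 119, 41.1, 138 and 34.7, -1.3 ± 0.40, adjusted p = 0.0164) and was highest in the 2 AF libraries with the most muscle RNA. Its call ended without NP libraries 18 and 22 (adjusted p = 0.0582). The lactate carriers divided likewise, the exporter Slc16a3 higher (68.1 ± 12.9 against 37.4 ± 9.95, 0.88 ± 0.20, adjusted p = 0.00285) and Slc16a1 lower (9.55 ± 2.12 against 26 ± 8.11, -1.32 ± 0.21, adjusted p = 0.000243). Aldoa, also a muscle enzyme, was not called (1816 ± 243 against 1446 ± 655, 0.43 ± 0.27, adjusted p = 0.194), but was without AF library 29 (0.65).

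In the respiratory chain the complex IV subunit Ndufa4 was at 56.5, 37.9, 44.9, 39.1 and 42.4 in NP and 113, 160.3, 117, 201 and 137 in AF (-1.68 ± 0.17, adjusted p = 1.18e-05). Cox5a was at 33.1, 29.8, 35, 28.4 and 32.5 in NP and 67.1, 118, 80.0, 125 and 87.4 in AF (-1.53 ± 0.16, adjusted p = 1.96e-05). The ATP synthase subunits Atp5b (254 ± 19.9 against 507 ± 57.4, -0.99) and Atp5o (98.1 ± 11.8 against 191 ± 38.8, -0.94) were lower in NP as well. Ndufa4 and Cox5a were highest in AF libraries 27 and 29, which had the most muscle RNA. AF libraries 25, 28 and 30 also stood above all NP libraries for both genes. Their summed muscle markers, at 1214, 2009 and 1384 scaled FPKM, were likewise above those of every NP library (at most 338.5). The part of muscle RNA in these differences was not tested. Cox4i1 was not called (286 ± 22.5 against 323 ± 41.6, -0.17 ± 0.11, adjusted p = 0.203).

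**Figure D5:**
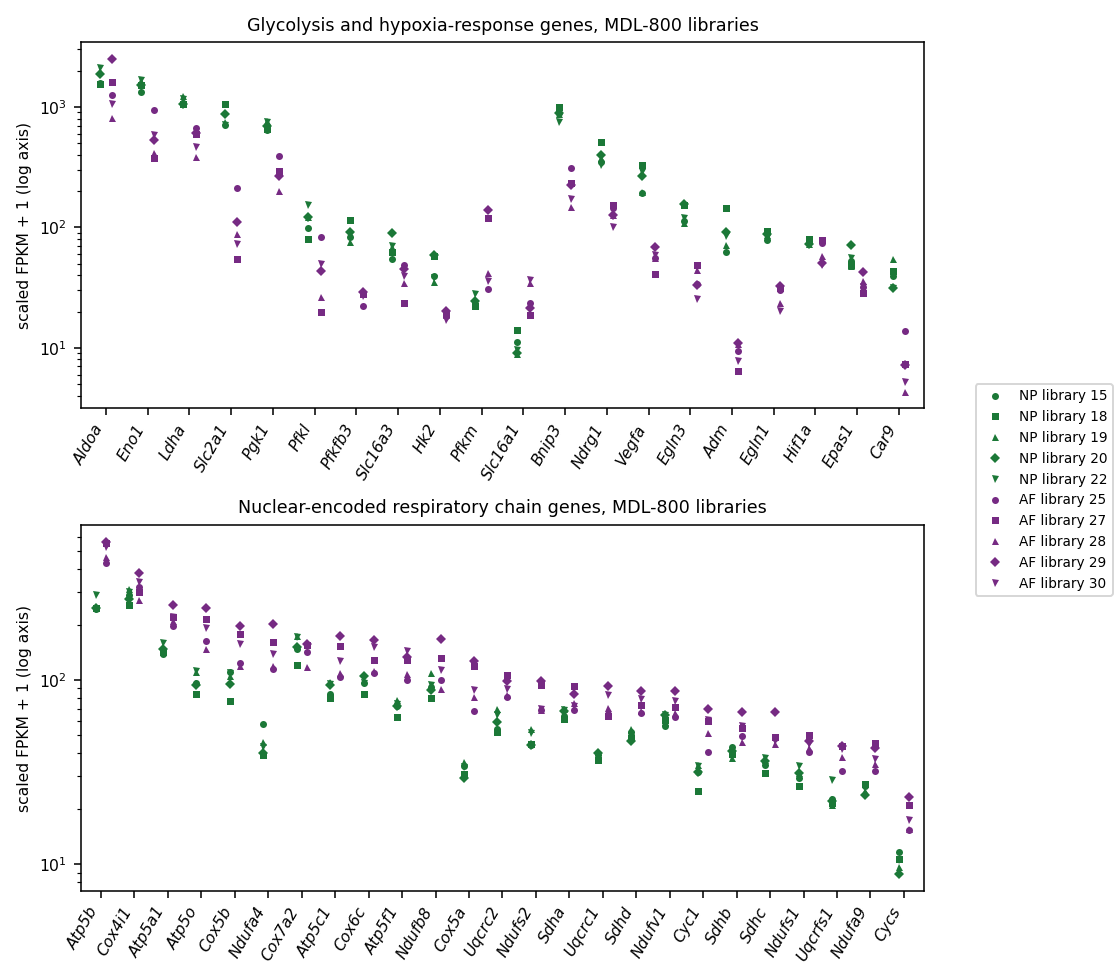
Scaled FPKM plus 1 on a log axis for glycolysis, HIF and respiratory chain genes, 1 point per treated library. Most genes of the upper panel sit higher in NP, with Pfkm and Slc16a1 higher in AF, and most respiratory chain genes of the lower panel sit higher in AF. Among the overlapping genes are Hif1a, Aldoa, Pfkl and Cox4i1.

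Genes of the response to osmotic stress were not uniformly higher in the NP, whose gel holds concentrated ions: 2 of 8 were higher and 5 lower (median -0.72, -0.55 in vehicle, -0.43 under quantile normalization). The share higher is near that of all genes (25.6%, with 37.2% lower). The osmolyte transporter Slc6a12 was at 79.6, 71.1, 84.3, 129.7 and 97.7 in NP and 112, 31.9, 37.7, 40.5 and 33.4 in AF, where library 25 overlapped the NP range (0.99 ± 0.32, adjusted p = 0.0186). It was not called without AF libraries 27 and 30 (0.69, adjusted p = 0.120). The sorbitol-making Akr1b3 was lower (24.6 ± 4.44 against 56.2 ± 9.19, -1.16 ± 0.14, adjusted p = 5.12e-05), as was the water channel Aqp1 (8.47 ± 6.36 against 181 ± 50.2, -4.52 ± 0.44, adjusted p = 1.00e-05), which red cells and endothelium also make, and the amino acid carrier Slc38a2 (-0.92, adjusted p = 0.00287). Hspa4l, a heat shock protein, was not called (14.7 ± 1.17 against 13.6 ± 2.49, 0.12 ± 0.12, adjusted p = 0.418), except under quantile normalization (0.36).

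Of 20 genes of the endoplasmic reticulum and its stress response, 4 were higher in NP and 11 lower, against 25.6% and 37.2% of all genes (median -0.41, -0.28 in vehicle). Sdf2l1, a chaperone partner, was at 5.39, 5.47, 5.1, 4.91 and 4.94 in NP and 17.6, 16.8, 16.5, 14.9 and 18.4 in AF, with little spread in either (-1.53 ± 0.08, adjusted p = 7.11e-07). The stress transcription factor Xbp1 (-0.88) and the chaperone Hspa5 (-0.53) were lower, whereas Sel1l, of the degradation machinery (0.81), and Ddit3, the stress factor CHOP (16.5 ± 2.45 against 9.47 ± 2.8, 0.77), were higher. Canx was not called (153 ± 12.1 against 137 ± 14.4, 0.16 ± 0.09, adjusted p = 0.154).

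In the Hedgehog pathway list 8 of 13 genes were lower in NP and 0 higher, against 37.2% and 25.6% of all genes (median -0.78, -0.84 in vehicle). The list leaves out Disp1, which was higher in NP, and Shh, which is counted with the NP markers. The median moved to -0.28 under quantile normalization and to -1.30 with a pseudocount of 0.1. Among ligands, Ihh, made by hypertrophic cartilage, was at 0 to 0.0824 in NP and 3.25, 6.32, 20.3, 9.39 and 3.22 in AF (-2.92 ± 0.39, adjusted p = 8.16e-05). Of the receiving side, the signal transducer Smo averaged 11.4 ± 0.831 against 29.3 ± 8.81 (-1.24 ± 0.19, adjusted p = 0.000222). The effector Gli1 was at 1.27, 0.999, 0.928, 0.698 and 0.855 in NP and 7.37, 11.1, 10.7, 8.31 and 5.0 in AF (-2.25 ± 0.19, adjusted p = 4.08e-06). Gli2 (-2.3) and the decoy Hhip (-2.74) were lower as well. Gas1, a co-receptor, was not called (113 ± 15.6 against 90.7 ± 35, 0.39 ± 0.24, adjusted p = 0.186), except without AF library 27 (0.58) or AF libraries 27 and 30 (0.36). The ligand-releasing Disp1, from outside the list, was thus high in NP, while the pathway's response genes Gli1 and Hhip were high in AF.

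Of 27 Wnt genes 8 were higher in NP and 15 lower (median -0.69, -0.85 in vehicle, where 5 were higher). The share higher is near that of all genes (25.6%, with 37.2% lower), and the median moved to -0.23 under quantile normalization. The ligand Wnt16 was at 67.4, 71.8, 71, 70.3 and 88.5 in NP and 18.5, 5.22, 4.69, 11.6 and 8.31 in AF (2.96 ± 0.30, adjusted p = 1.24e-05). The co-receptors Lrp5 (1.51) and Lrp6 (1.25) and the receptor Fzd7 (0.95) were higher in NP. Among secreted inhibitors, Wif1 was at 1.21, 0.736, 1.87, 0.127 and 2.69 in NP and 81.6, 143, 85.4, 73.6 and 53.5 in AF (-5.29 ± 0.33, adjusted p = 1.17e-06). Sfrp4 was at 0.249, 0.747, 0.747, 0.169 and 0.556 in NP and 30.2, 29.2, 31.9, 35.2 and 41.8 in AF (-4.54 ± 0.15, adjusted p = 1.81e-07). Frzb (-4.3) and Sfrp2 (-3.7) were lower too, but the inhibitor Sfrp5 overlapped and was not called (40.4 ± 16.9 against 39.7 ± 21.4, 0.05 ± 0.42, adjusted p = 0.929). Lef1, a nuclear effector and target, was lower in NP (0.29 ± 0.197 against 8.69 ± 3.29, -2.87 ± 0.20, adjusted p = 1.83e-06).

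Of 33 TGF-beta and BMP genes 7 were higher in NP and 18 lower (median -0.78, -0.92 in vehicle). The share higher is near that of all genes (25.6%, with 37.2% lower), and the median moved to -0.35 under quantile normalization. The ligands differed in direction. Tgfb2 was at 58.2, 107, 64.8, 50.4 and 38 in NP and 21.2, 20.8, 17.3, 18.2 and 8.72 in AF (1.8 ± 0.29, adjusted p = 0.000288). Tgfb1 was at 7.94, 15.7, 10.1, 6.15 and 11.8 in NP and 57, 87.6, 110.2, 63 and 67.1 in AF (-2.8 ± 0.24, adjusted p = 4.98e-06). Bmp7 was higher in NP (1.83), and Gdf10 (-4.78), Gdf5 (-3.08) and Bmp4 (-2.12) were lower. The secreted BMP antagonists also differed, Chrd (chordin) being higher in NP (19.3, 20.1, 17.8, 23.5 and 18.6 against 5.91, 3.88, 3.8, 5.03 and 4.08, 1.92 ± 0.12, adjusted p = 1.33e-06) and Grem1 (-3.38) and Chrdl1 (-4.05) lower. Tgfbi, a matrix protein induced by the pathway, was lower in NP as well (10.3 ± 5.4 against 116 ± 31.7, -3.47). Tgfbr3 was not called (72.3 ± 13.3 against 78 ± 31.5, -0.02 ± 0.27, adjusted p = 0.946).

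In the IGF pathway 3 of 11 were higher in NP and 7 lower, against 25.6% and 37.2% of all genes (median -2.54, -3.19 in vehicle). The 2 sides of the pathway differed. The ligand Igf1 was at 0.627, 1.16, 0.424, 0.159 and 0.597 in NP and 34.5, 45.2, 43.6, 47.8 and 24.2 in AF (-4.64 ± 0.21, adjusted p = 7.11e-07). The binding proteins Igfbp4 (-4.59), Igfbp5 (-4.05) and Igfbp3 (-3.79) were lower in NP. The receptor Igf1r, at 63.9, 81, 51.3, 68.3 and 56.1 in NP and 24.9, 18.9, 25.5, 21.8 and 20.2 in AF (1.48 ± 0.13, adjusted p = 6.27e-06), and its adaptor Irs2 (0.87) were higher. Irs1 was not called (10.3 ± 2.02 against 11.3 ± 3.16, -0.10 ± 0.19, adjusted p = 0.680).

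Of 21 sclerotome and positional transcription factors 14 were lower in NP and 5 higher, a share higher near that of all genes (25.6%, with 37.2% lower). The median was -1.55 (-1.41 in vehicle), -0.96 under quantile normalization and -3.20 with a pseudocount of 0.1. Pax1, a sclerotome factor, was at 0.577, 0.189, 1.38, 0.127 and 1.74 in NP and 29.3, 53.2, 36.9, 31.5 and 22 in AF (-4.34 ± 0.29, adjusted p = 1.67e-06). Its relative Pax9 (-2.58), Meox2 (-3.55), Twist1 (-2.84) and Hoxc10 (-3.18) were lower too, all near 0 in NP. The 5 higher in NP were all Hox genes, which set position along the body axis. The other Hox genes of the list, Hoxc10 among them, were lower or not called, so Hox genes did not share a direction. Hoxd9 was at 35.1, 42.1, 30.7, 34.3 and 23.5 in NP and 5.81, 10.2, 7.89, 7.05 and 2.63 in AF (2.21 ± 0.27, adjusted p = 4.84e-05). Hoxd10 (1.84), Hoxa5 (1.7), Hoxd8 (1.62) and Hoxa7 (1.49) were higher with it. Hoxa10 was not called (8.49 ± 3.09 against 13.9 ± 4.31, -0.67 ± 0.27, adjusted p = 0.0513). It was called without NP library 15 or 18 or AF library 30 (-0.81 to -0.78), with FPKM as deposited (-0.75) and with scaling by uncalled genes (-0.67).

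Of 20 senescence, cytokine and chemokine genes 13 were lower in NP and 2 higher, against 37.2% and 25.6% of all genes (median -1.28, -1.05 in vehicle). The median was -0.75 under quantile normalization, -2.60 with a pseudocount of 0.1 and -2.11 among genes at 5 FPKM or more. Cxcl12, a stromal and marrow chemokine, was at 18.1, 46.7, 19.4, 12.7 and 20.1 in NP and 179.8, 329, 408, 330.3 and 315 in AF (-3.77 ± 0.31, adjusted p = 4.04e-06). Cxcl14 (-4.7), Ccl2 (-3.53), Il1b (-3.28) and Tnf (-1.69) were lower too, alongside the lower sums of neutrophil and macrophage markers given above. The cell-cycle inhibitor Cdkn2b was higher in NP (6.95, 6.88, 7.04, 7.09 and 5.87 against 1.98, 1.51, 1.29, 2.11 and 1.24, 1.57 ± 0.12, adjusted p = 2.62e-06), and Cdkn1a, p21, was not called (33.7 ± 8.47 against 38 ± 11.1, -0.15 ± 0.23, adjusted p = 0.590).

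Sirt6, which encodes the target of the compound, was at 8.14, 8.21, 9.0, 8.94 and 8.14 in NP and 6.12, 2.69, 4.97, 6.26 and 7.69 in AF of treated mice (0.59 ± 0.20, adjusted p = 0.0229). All NP libraries lay above all AF libraries, though AF library 30 came close, at 7.69 against the lowest NP value of 8.14. The call held whichever 1 library was left out but not without both NP libraries 18 and 22 (0.62, adjusted p = 0.0660), nor in the 6 libraries whose header numbers occur in both compartments (0.75, adjusted p = 0.0842). In vehicle mice Sirt6 averaged 5.03 ± 1.33 in NP and 4.73 ± 1.17 in AF and was not called (0.07, adjusted p = 0.793). The compartment difference in the 2 arms differed by 0.52, with a 95% interval from -0.09 to 1.13 (limma, unadjusted p = 0.0907, adjusted p = 0.9997), so that the arms are not shown to differ. RNA level does not measure SIRT6 activity.

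Of the 15 sirtuin and NAD genes tested, 3 were higher in NP, 5 lower and 7 not called (median -0.20, -0.29 in vehicle, 0.25 under quantile normalization, -0.08 without AF library 29), shares near those of all genes. Beside Sirt6, the higher ones were Sirt2, a cytoplasmic deacetylase (52.6 ± 4.96 against 37.9 ± 5.21, 0.47 ± 0.11, adjusted p = 0.00334), and Sirt3, of mitochondria (12.5 ± 2.24 against 9.28 ± 1.78, 0.40 ± 0.15, adjusted p = 0.0414), whose call ended without NP library 15, 19, 20 or 22 or AF library 25, 27, 28 or 29 (adjusted p up to 0.1). It also ended without AF libraries 27 and 30, without NP libraries 18 and 22, with FPKM as deposited and with no filter (adjusted p 0.0514 to 0.105). The NAD-consuming Cd38 (0.607, 1.07, 0.716, 0.995 and 0.587 against 4.79, 4.86, 6.96, 7.99 and 6.54, -2.0 ± 0.15, adjusted p = 2.50e-06) and Nnmt (-2.58), the NAD kinase Nadk (-0.99) and the NAD-salvage enzyme Nampt (-0.58) were lower in NP. Sirt7 was lower too (-0.49, adjusted p = 0.0339), and this call ended without NP library 15, 18, 19 or 22 or AF library 25, 28 or 30 (adjusted p up to 0.0780). It also ended without NP libraries 18 and 22, with no filter, with all 4 groups in 1 fit and under quantile normalization (adjusted p 0.0508 to 0.192). Sirt1 (-0.20, adjusted p = 0.0997) and Parp1 (0.05, adjusted p = 0.767) were not called. Sirt1 was called lower with FPKM as deposited (-0.27, adjusted p = 0.0339) and with all 4 groups in 1 fit (adjusted p = 0.0405).

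Of 21 lysosome and autophagy genes 5 were higher in NP and 8 lower, shares near those of all genes (25.6% and 37.2%). Their median was -0.14 (-0.19 in vehicle), and it was 0.05 under quantile normalization, -0.21 with FPKM as deposited and -0.07 without NP library 19. The autophagy-starting kinase Ulk1 was at 66.2, 65, 58.9, 91.8 and 72.7 in NP and 23.8, 14.7, 21.9, 22.2 and 26.3 in AF (1.67 ± 0.16, adjusted p = 9.67e-06). The autophagy genes Becn1 (-0.80) and Atg7 (-0.86) were lower in NP, and Gabarap was not called (341 ± 45.3 against 337 ± 31.2, 0.01 ± 0.11, adjusted p = 0.929).

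Clock genes were higher in NP or not called, 10 of 16 and 6 of 16 (median 0.85), against 7 higher in vehicle (median 0.53). Among all genes 25.6% were higher in NP in treated mice and 21.8% in vehicle. Per1, a repressor of the clock loop, was at 53.3, 119.6, 59.1, 65.9 and 131 in NP and 15.2, 14.4, 14.2, 31.8 and 32.8 in AF (1.94 ± 0.33, adjusted p = 0.000468). Bhlhe40 was at 204, 476, 267, 302 and 362 in NP and 87.1, 127, 82.9, 109 and 82.1 in AF (1.68 ± 0.22, adjusted p = 6.84e-05). The output factors Hlf (1.63) and Tef (1.15) were higher as well. Ciart, whose upstream sequence with its 3 E-boxes is printed above and which shares 20.8% of its words with other transcripts, was at 21.2, 62.5, 37.4, 18.9 and 33.6 in NP and 5.42, 7.41, 4.02, 7.94 and 4.73 in AF (2.28 ± 0.30, adjusted p = 7.86e-05). It was not called in vehicle (1.19, adjusted p = 0.116). The E-box CACGTG was in the 250 bases before the start for 5 of 14 genes of the clock list and 9.60% of tested genes. Of the core activators, Arntl (BMAL1) was not called (14.7 ± 2.87 against 13 ± 5.17, 0.23 ± 0.26, adjusted p = 0.469), nor was the repressor Nr1d2 (33.7 ± 5.09 against 26.6 ± 7.85, 0.36 ± 0.19, adjusted p = 0.119), except without AF library 29 (0.48) or under quantile normalization (0.52). The time of day of collection is not given in the labels.

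Of 17 immediate early genes, which respond within minutes to stress and handling, 7 were higher in NP and 3 lower in treated mice (median 0.55, 0.26 without NP library 15). In vehicle 1 was higher and 3 lower (median -0.19). Among all genes the shares higher and lower were 25.6% and 37.2% in treated mice and 21.8% and 33.9% in vehicle. Ier3 was at 103, 166, 102, 125 and 159 in NP and 36.2, 54.6, 26.7, 48.2 and 44.5 in AF (1.63 ± 0.21, adjusted p = 6.23e-05). Junb was at 43.9, 59.2, 43, 53.1 and 55.9 in NP and 22.8, 7.51, 12.7, 35.2 and 40.7 in AF (1.29 ± 0.39, adjusted p = 0.0131), and was not called without NP libraries 18 and 22 (1.17, adjusted p = 0.0712). Klf2 averaged 77.1 ± 19 against 31.4 ± 5.56 (1.24 ± 0.20, adjusted p = 0.000249). In vehicle Junb averaged 8.81 ± 5.97 in NP and 11.1 ± 5.67 in AF (-0.47, adjusted p = 0.5). The compartment difference was 1.76 larger in treated mice (95% interval 0.25 to 3.28, limma, unadjusted p = 0.0251, adjusted p = 0.9997). Egr2 (-1.31) and Nr4a2 (-1.81) were lower in NP, and Fos was not called, at 405, 196, 174, 161 and 80.2 in NP and 117, 198, 95.2, 202 and 57.7 in AF (0.55 ± 0.44, adjusted p = 0.291).

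The genes at the top of the comparison between arms did not pass it after adjustment, each with adjusted p = 0.9997. Fzd2, a Wnt receptor, was at 7.78, 7.85, 7.68, 10.6 and 9.0 in NP and 3.51, 2.8, 3.6, 5.16 and 2.29 in AF of treated mice (1.12). In vehicle it averaged 4.77 ± 1.2 and 4.38 ± 0.954 (0.09), a difference between arms of 1.03 ± 0.25 (SE, unadjusted p = 0.000525). Zfand3, a zinc finger gene, was higher in NP by 0.92 in treated mice and differed by 0.24 in vehicle (unadjusted p = 0.000286). Nup54, of the nuclear pore, differed by -0.86 against -0.23 in vehicle (unadjusted p = 0.000246), with 21.1% of its words shared with other transcripts. The membrane-bound protease gene Mmp16 was lower in NP in treated mice (-1.59) and differed by -0.87 in vehicle (unadjusted p = 0.000306).

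Of the other genes at the top, Gm12480, with 22.7% of its words shared, differed by 1.3 and -0.14 (unadjusted p = 0.000983). Rps13-ps2, a processed pseudogene, was listed at 0 in all 5 treated NP libraries and in AF library 30, at 37.9 to 153 in the other 4 treated AF libraries, and averaged 148 ± 23.3 in NP and 150 ± 52.2 in AF of vehicle mice (unadjusted p = 0.000572). All of its 31-base words occur in Rps13, so that reads of the 2 cannot be told apart. Without AF library 30, 1 gene passed the comparison between arms, and it was this pseudogene.

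Among protein-coding genes called in treated mice and not in vehicle, the largest excesses in NP were in Ciart, given above, Cldn19 and Atn1. Cldn19, a tight junction claudin, was at 14.4, 11.9, 12, 14.4 and 12.1 in NP and 5.75, 1.24, 1.1, 5.05 and 3.17 in AF (1.87 ± 0.32, adjusted p = 0.000428). It differed by 0.35 in vehicle (adjusted p = 0.443). Atn1, a transcriptional corepressor that shares 83.6% of its words with an overlapping entry, differed by 1.44 and 0.73.

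The largest deficits among these genes were in Serpina1c, Corin and Col9a3. Corin, a membrane protease, was at 0.0421 or less in NP and 1.47 to 13.1 in AF (-2.56 ± 0.42, adjusted p = 0.00036), and in vehicle the difference was -1.05 (adjusted p = 0.0653). Col9a3, a chain of cartilage collagen IX, was lower in NP (-1.67) and differed by -1.09 in vehicle (adjusted p = 0.074). Serpina1c (-3.3 and -1.01) shares 82.2% of its words with its relatives. All of these had the same sign in both arms.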

How the data were processed

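RNA from NP and AF tissue was made into stranded total RNA libraries after ribosomal depletion from 50 ng of RNA with 14 PCR cycles, per the labels' protocols. The submitters' processing notes name STAR 2.7.11b and mm10. The counting tool and its annotation are not given in the sources used here. The authors deposited 1 table of FPKM for 51789 genes in 20 libraries, and all 20 columns were mapped by their names. Gene types and positions came from GENCODE M21 (GRCm38) by gene ID, which matched 51596 entries.

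Libraries were put on 1 scale by dividing each by a factor, the middle value of its FPKM relative to each gene's geometric mean, taken from the 11308 genes that no library held below 1 FPKM. The 16383 genes that reached 1 FPKM in any 5 libraries were tested with limma 3.58.1 in R 4.3.3 on log2(scaled FPKM + 1), NP against AF in 5 and 5 libraries of each arm, and the difference between the arms over all 4 groups, with Benjamini-Hochberg adjustment over all tested genes. The test was checked on simulated data in which both groups had the same spread for each gene and most genes were unchanged. In these libraries the median gene's SD was 0.265 in AF and 0.175 in NP, and most genes were called. The check does not cover those conditions. Tables were handled in Python 3.11.15 with pandas 2.3.3, scipy 1.17.1 and matplotlib 3.10.9. Depth was estimated, not counted, since FPKM holds no totals, so no counting intervals are given.

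The members and gene lists were chosen with earlier results of these data known, and nothing here is independent support for them. The text names the 10 largest changes each way (protein-coding, mean of at least 10, no overlap, no neighbouring-cell marker) and all NP and AF markers tested. From other disc lists it names up to 4 called members with the largest change and the most abundant member not called. Sirt6 and the leading genes of the difference between arms and of the calls made in treated mice alone are named too. From each neighbouring-cell list 1 gene stands as an example, except nerve. Some genes that these rules pick are not reported here. Members against their list's direction, or named for their role, were chosen after their values were seen. Normalization, pseudocount, filter, threshold, GC content, blocking and left-out libraries were varied. The blocks by header number, GC content and leaving out AF libraries 27 and 30 or NP libraries 18 and 22 were chosen after seeing the data. Genes of the mitochondrial genome were not analysed here.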

Additional observations from a re-analysis of the deposited data

Results flagged for a closer look

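In 11 of the 158 sets of 5 values tested, 1 library stood apart from the other 4 by Dixon's criterion (gap over range above 0.71 for 5 samples), and chance alone gives about 1 in 20. NP library 15 was high in Myoc (42.9 scaled FPKM, next 5.97), in Tnmd (1.57, next 0.350) and in Cdh2 (208, next 190.2). NP library 18 was high in the summed TGF-beta and BMP genes (643, next 552) and in the summed senescence, cytokine and chemokine genes (210.5, next 149). NP library 19 was high in summed bone markers (168, next 20.0), and NP library 22 in Kera (0.268, next 0.0697). Among AF libraries, library 25 was high in B and plasma cell markers (9621, next 4461) and in Krt18 (105, next 43.1) and low in the summed senescence, cytokine and chemokine genes (458, next 642). AF library 29 was high in fat markers (1071, next 400.4). Apart from the summed TGF-beta and BMP genes, whose ranges overlapped between compartments, none of these values reached the range of the other compartment.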

How the results depend on the processing

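With 1 library left out, the calls in treated mice ran from 9572 to 10283 (3779 to 4162 higher, 5744 to 6121 lower), those in vehicle from 8291 to 9138, those shared from 7700 to 8289, and those of the difference between arms from 0 to 1. With a threshold of at least 1 on the log2 scale added, 4502 genes were called in treated mice (1152 higher, 3350 lower), 4168 in vehicle and 3785 in both. Quantile normalization raised the higher calls to 6919, and the cause was not tested. Without AF library 30, Rps13-ps2 passed the difference between arms (-6.56, adjusted p = 1.46e-07). Some numbers in the table's header are shared by NP and AF libraries. The deviations of same-numbered libraries correlated weakly and with both signs (r = 0.01, -0.18 and 0.17 for the 3 treated pairs, -0.18 to 0.29 for the 5 vehicle pairs). So few pairs cannot show whether the same mice gave both tissues. With the number as a replicate block, 7858 genes were called in the 6 treated libraries concerned (8303 without the block) and 8783 in vehicle, and 10492 with the block as a random effect over all 10. Of the genes named, the block ended the calls of Foxa2, Sox6, Timp3, Pfkm, Sirt3, Sirt6 (0.75, adjusted p = 0.1), Sirt7, Myh11, Rps13-ps2, Col9a3 and Xpr1, and called Shh (1.20), Basp1 (0.65), Fmod (0.95), Sfrp5 (0.92) and Hoxa10 (-1.03). In these 6 libraries without the block, Sox6, Myh11 and Col9a3 kept their calls, Ddit3 lost its own, and Aldoa (0.83) and Sirt1 (-0.36) were called while Shh was not. The random block called Hoxa10 (-0.69). Removing GC content gave 10345 calls. No named gene that was called changed sign under any alternative run. Of the named genes not called, 8 did. Under FPKM as deposited, Timp2 turned to -0.0148, Gabarap to -0.0714, Sfrp5 to -0.0345 and Parp1 to -0.0333. Under quantile normalization Scx turned to 0.207, Sirt1 to 0.0731, Gabarap to -0.0354, Tgfbr3 to 0.0810 and Irs1 to 0.175, and under rescaling to protein-coding genes Tgfbr3 to 0.00958. Timp2 turned to -0.0115 in those 6 libraries with or without the block, and Sfrp5 to -0.181 without AF libraries 27 and 30. With 1 library left out, Timp2 ranged from -0.0849 to 0.226, Gabarap from -0.0479 to 0.0583, Sfrp5 from -0.158 to 0.366, Tgfbr3 from -0.261 to 0.151 and Parp1 from -0.0447 to 0.111.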
